A study of Mus musculus with 19 samples.

Results

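The 10 genes described here, Phactr1, Agtpbp1, Nptn, Trnp1, Crebzf, Zfp365, Xiap, Asxl2, Myh10 and Slc4a10, were selected on measured values, the expected counts of a non-coding isoform lying in their 3' untranslated region (3' UTR), for being higher in D1 neurons of 2-year-old mice than of young ones. They are 10 of the 39017 genes in the deposited tables and 10 of 906 that have a coding isoform together with a non-coding isoform with at least 50% of its bases in the 3' UTR. Since the D1 age contrast chose them, their D1 values are a description with no test. The tests of these 10 genes below use D2 neurons, which the choice did not use. Tests in D1 are given for other genes, and D1 counts of called ratios and 3' isoform levels include the members among the genes tested. The label holds for the mean of each gene. By the 3' isoform's share of 3' and coding counts, young and old D1 libraries overlapped in Xiap, Asxl2, Myh10 and Slc4a10. The share of Myh10 does not keep its direction without 1 library. By the counts of the 3' isoform scaled to library size, young and old D1 overlapped in these genes and also in Zfp365 and Trnp1.

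The measurements come from translating ribosome affinity purification (TRAP) of mouse striatum, in which ribosomes carrying the ribosomal protein L10a fused to green fluorescent protein (EGFP) are pulled down with the mRNA bound to them. The tag was driven by a dopamine receptor gene, in strains given as Drd1::EGFP-L10a for D1 spiny projection neurons and Drd2::EGFP-L10a for D2 spiny projection neurons, both on a C56BL/6J background. There were 4 groups of 4 libraries, young D1, old D1, young D2 and old D2: young mice were 42 days and old mice 2 years of age, all were female and all carried the tag. Any cell that uses the receptor gene's regulatory sequence can carry the tag, so a pulldown is not limited to spiny projection neurons by its design. Libraries of 1 group are biological replicates, per the design text.

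A mature mRNA carries its coding sequence, a stop codon and then the 3' UTR, which holds binding sites for microRNAs and RNA-binding proteins and ends at the poly(A) tail. Ribosomes leave the message at the stop codon, where release factors and the recycling factor Abce1 split them from it. A gene can make several 3' ends through alternative cleavage and polyadenylation, and RNA that carries a 3' UTR without its coding sequence has been described in brain.

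Each gene's non-coding isoform, called its 3' isoform below, is annotated as a processed transcript. In 5 genes it lies wholly (100% of exonic bases) in the 3' UTR of the gene's coding isoforms. On GRCm38 (the assembly behind mm10) with GENCODE M21 these are Phactr1-216 (chr13:43135384-43138513, plus strand, 273 bases), Agtpbp1-211 (chr13:59449537-59450228, minus strand, 278 bases), Nptn-209 (chr9:58651976-58652818, plus strand, 486 bases), Trnp1-201 (chr4:133491118-133497719, minus strand, 687 bases) and Crebzf-206 (chr7:90444703-90446095, plus strand, 701 bases). Of these, 4 begin after the most downstream stop codon of the gene, by 195 bases of genome in Phactr1, 658 in Nptn, 67 in Trnp1 and 612 in Crebzf. Agtpbp1-211 is inside the 3' UTR of some coding isoforms, and 24.5% of its bases are coding in others.

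To mark the border behind which those 4 isoforms lie, the last 27 coding bases and the stop codon (in capitals) of the most abundant coding isoform of each gene are given, read from the GENCODE M21 transcripts.
Phactr1-205: agacacttaaccaggtttcatcgacctTAA
Nptn-206: aaaaacttgcgccagagaaacacaaatTAA
Trnp1-202: ccccgcggccccgcctccccccagcgcTGA
Crebzf-201: cggaaggcgtcgtcgtctcttaaaatgTAG
Over all 10 genes the main coding isoform ended in TAG in 5, TAA in 4 and TGA in 1. Among 38253 coding isoforms of the annotation, TAG closed 23.1%, TAA 27.1% and TGA 49.8%.

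In the other 5 genes the 3' isoform was 81.3 to 87.3% 3' UTR and is longer than a 3' UTR piece. Zfp365-203 (chr10:67886168-67901337, minus strand, 3276 bases) holds 14.6% coding bases in 4 exons. Xiap-207 (chrX:42068755-42109656, plus strand, 5407 bases) has 6 exons, shares its 3' end with a coding isoform and holds 11.4% coding bases. Asxl2-206 (chr12:3493761-3504748, plus strand, 5561 bases) is coding in other isoforms over 57.2% of its bases, which also count as 3' UTR of a shorter coding isoform. Myh10-206 (chr11:68814362-68816544, plus strand, 1811 bases) and Slc4a10-207 (chr2:62317390-62325377, plus strand, 778 bases) hold 17.4% and 9.5% coding bases. A rule asking for at least 90% of bases in the 3' UTR therefore keeps the first 5 genes, and these 5 are given at 50%.

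**Figure D1:**
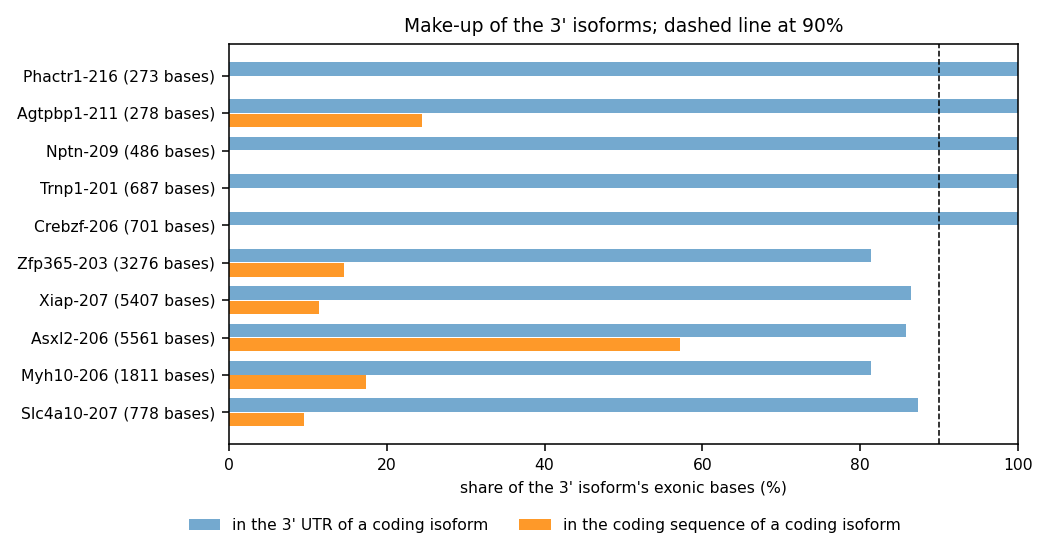
Share of each 3' isoform's exonic bases (x axis, percent) that lie in the 3' UTR (blue) or in the coding sequence (orange) of the gene's coding isoforms; a base can be both where coding isoforms differ, and the dashed line marks 90%. The upper 5 isoforms reach 100% and the lower 5 lie between 81.3 and 87.3%.

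The sequence of these isoforms gives little that is their own. In 7 of the 10 no base lies outside the exons of coding isoforms, against 21.7% of the 553 such isoforms of all tested genes. An intron not shared with any coding isoform was present in 7, all but Asxl2, Myh10 and Slc4a10. RSEM, the program behind the deposited counts, divides fragments from shared bases among isoforms by a model, so the counts of a 3' isoform and of its coding partners are linked estimates. The 3' isoforms had a median GC content of 41.15% against 48.0% in all such isoforms of tested genes, and 9 of 10 had less GC than the main coding isoform (74.9% in all). The median of that GC difference was -4.85 percentage points, against -1.8. The poly(A) signal hexamers AATAAA or ATTAAA, searched on the transcript strand in the last 50 bases, were found in 4 (Agtpbp1, Xiap, Myh10 and Crebzf, each AATAAA), against 56.8% of the 553 isoforms and 54.8% of 45345 protein-coding isoforms.

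The libraries held 27484038 to 70903005 assigned fragments. Those of old D1 differ from the other 12 in fragment length, with a mean of 151.2 to 164.4 bases where the others have 170.3 to 195.4. A count was present for 10369 to 13705 genes in them and for 12783 to 15000 in the others. Gm42418, a ribosomal RNA-like gene, took 4.45 to 5.41% of counts in old D1 and 9.76 to 18.2% in the other 12. Over all 470 tested genes with both isoform classes, the median share of 3' isoforms was 16.8 to 24.8% in old D1 libraries, against 3.59 to 12.8% in young D1, 6.90 to 14.9% in young D2 and 5.51 to 8.83% in old D2. The part of fragment length and of Gm42418 in the members' D1 values was not tested. By markers, D1 neuron genes summed to 4597 to 7381 TPM in old D1 and 2459 to 3229 in young D1, with D2 markers at 112 to 551 and 108 to 226. The D1 sum is largely Tac1, at 4054 ± 1274 TPM in old D1 and 1617 ± 324 in young D1 (SD, n = 4). On gene counts Tac1 was the 1 called of these 6 (edgeR log2 1.335, adjusted p = 0.00226), against 10.6% of all genes. Of the 6, 5 had a positive change and Chrm4 a negative one (log2 -0.99, adjusted p = 0.241). Genes shared by spiny projection neurons summed to 4105 to 4350 TPM in old D1 and 5126 to 6499 in young D1. Here too 1 of 6 was called, Ppp1r1b (edgeR log2 -1.30, adjusted p = 9.68e-05), at 1764 ± 367 TPM in old D1 and 3766 ± 407 in young D1. A positive change was found in 2 of the 6. Astrocyte, microglial, endothelial and mural, and cholinergic lists stayed at or below 21.8 TPM in all D1 libraries. C1qa of microglia and Cldn5 of endothelium were at 0 in D1. Other genes of these lists were not: P2ry12 reached 6.68 TPM in old D1 (0.49 in young D1), and Rgs5 20.3 (2.96). Of the genes tested, 1 of 3 microglial and 2 of 2 endothelial and mural ones had a positive log2 change in D1, and none was called. Oligodendrocyte markers were at 66.3 to 172 TPM in old D1 and 107 to 264 in young D1. GABAergic interneuron markers were at 30.5 to 546 TPM in old D1 and 62.1 to 140 in young D1, and glutamatergic ones at 0.090 to 139 and 1.32 to 17.5, so that both sums overlap. On gene counts 1 of 4 GABAergic markers tested was called in D1, Nos1 (edgeR log2 3.90, adjusted p = 0.0038). Nos1 did not overlap, at 5.53 to 22.6 TPM in old D1 and 0.50 to 1.68 in young D1. The part of all these markers in the members' values was not tested. In pulled-down RNA, fewer cells of a type and less RNA per cell cannot be told apart. The labels' index sequences end in a part that old D1 shares with no other group, so index and age cannot be told apart.

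**Figure D2:**
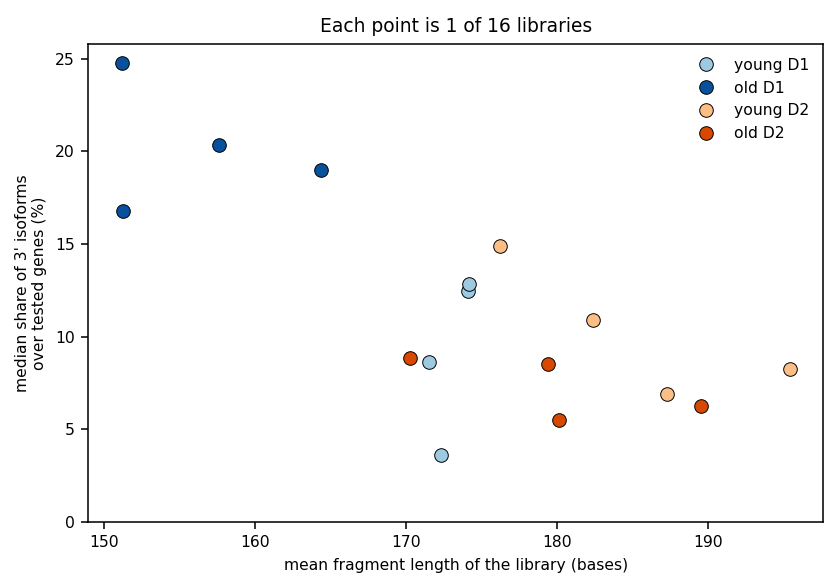
Mean fragment length of each library (x axis, bases) against the median share of 3' isoforms in the counts of 470 tested genes (y axis, percent); each point is 1 of 16 libraries, coloured by group. The 4 old D1 libraries lie at the upper left, between 16.8 and 24.8%, and the other 12 at or below 14.9%.

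Values below are the share of the 3' isoform in the sum of 3' and coding isoform counts, in percent, and levels in CPM, counts scaled to the library's total after TMM normalization. All 10 genes had a higher mean share in old than in young D1. In 6, Phactr1, Agtpbp1, Nptn, Trnp1, Crebzf and Zfp365, every old D1 library lay above every young one; among all 470 tested genes 8.94% did so, and nothing is read from this since the contrast chose the genes. In 5 of these, all but Zfp365, the old D1 libraries also lay above all 12 others, as did 6.17% of the 470 and 20% of the 30 tested genes that pass the 90% rule. Both rates count the members themselves, and the 6 genes behind the 20% include these 5. The fitted log2 change of the ratio of 3' to coding counts in D1 had a median of 2.49 over the 10 genes (0.90 to 13.29) and of 1.25 over all 470, of which 63.2% were positive.

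**Figure D3:**
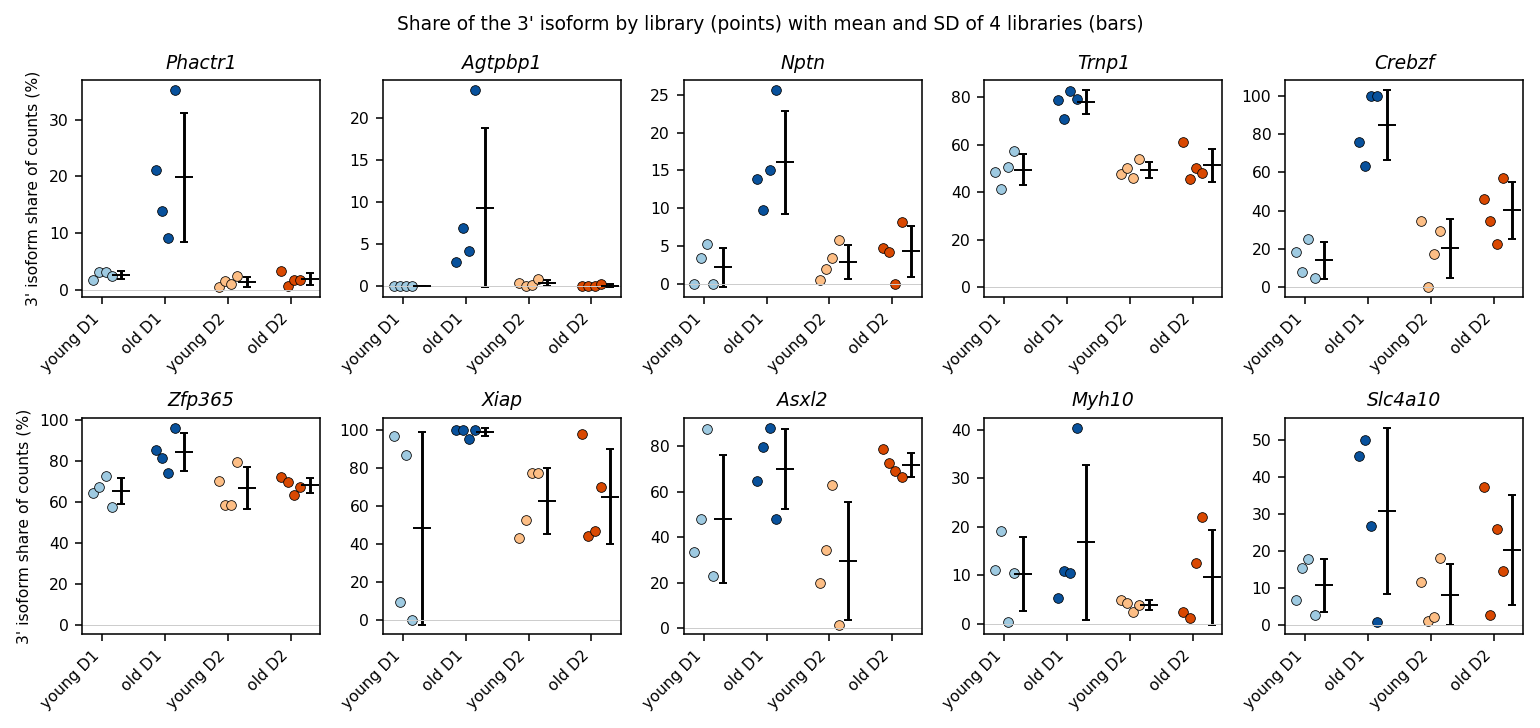
Share of the 3' isoform in each gene's 3' and coding counts (y axis, percent; each panel has its own scale) for the 4 libraries of each group (points), with mean and SD beside them. In the upper row all old D1 points lie above the other 3 groups; in the lower row young and old libraries of 1 neuron type overlap, except in Zfp365 for D1 and Asxl2 for D2.

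Phactr1 codes for a regulator of protein phosphatase 1 that also binds actin. Its 3' isoform made up 1.68, 3.10, 3.06 and 2.39% of counts in young D1, 21.1, 13.8, 9.17 and 35.2% in old D1, 0.423, 1.47, 0.971 and 2.41% in young D2 and 3.30, 0.630, 1.71 and 1.69% in old D2. Old D1 is the one high group and the other 3 overlap. The level of the 3' isoform was 12.1 to 22.6 CPM in young D1 and 59.9 to 132 in old D1; in 4 of the 10 genes, and in 6.38% of the 470, old D1 levels all lie above young D1. Coding isoforms moved the other way, from 608 to 717 CPM in young D1 to 242 to 593 in old D1, again with no overlap. Coding counts in old D1 that all lie below those of young D1 were found in 15.3% of the 470 genes.

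Agtpbp1 codes for a carboxypeptidase that removes glutamates from tubulin tails. Its 3' isoform was at or near 0 outside old D1, with 2.83, 0, 0 and 0 expected counts in young D1, 80.9, 0, 29.2 and 212 in young D2 and 0, 0, 0 and 39.98 in old D2. In old D1 it held 599, 1825, 879 and 7605 counts, a share of 2.92, 6.97, 4.15 and 23.3%. Old D1 replicate 4 is far above the rest, and without it the old D1 mean share exceeds the young one by 4.68 percentage points in place of 9.33. Coding isoforms were at 332 to 498 CPM in young D1 and 483 to 767 in old D1, which overlap.

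Nptn codes for neuroplastin, a cell adhesion protein of the immunoglobulin family at synapses. The share of its 3' isoform was 0.0737, 3.47, 5.29 and 0% in young D1, 13.9, 9.73, 15.01 and 25.6% in old D1, 0.597, 1.93, 3.41 and 5.76% in young D2 and 4.74, 4.26, 0 and 8.24% in old D2. The lowest old D1 library lies above the highest of the other groups. Its 3' isoform stood at 0 to 17.9 CPM in young D1 and 40.8 to 114 in old D1, while coding isoforms were at 228 to 320 and 231 to 436.

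Trnp1, which codes for a small nuclear protein of neural progenitors, varied little within groups. The 3' isoform took 48.7, 41.3, 50.6 and 57.3% of counts in young D1, 79.1, 71.02, 82.7 and 79.4% in old D1, 47.6, 50.4, 45.9 and 53.8% in young D2 and 61.3, 45.7, 50.1 and 48.1% in old D2. The 3 other groups have means of 49.4 to 51.3%, and old D1 has 78.1% ± 4.98 (SD, n = 4). Levels of the 3' isoform overlapped (59.6 to 126 CPM in young and 102 to 169 in old D1), as did those of coding isoforms (57.2 to 124 and 27.1 to 69.0).

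Crebzf codes for a leucine zipper transcription factor and is the least abundant of these 5. Its 3' isoform share was 18.5, 7.91, 25.4 and 4.64% in young D1, 75.8, 63.3, 100 and 100% in old D1, 34.5, 0, 17.2 and 29.6% in young D2 and 45.9, 34.8, 22.8 and 57.2% in old D2. Old D1 is above all, and the shares of 100% come from libraries in which coding isoforms had no count. Coding isoforms stood at 9.11, 3.53, 0 and 0 CPM in old D1 and 7.08 to 16.1 in young D1, and the 3' isoform at 6.10 to 51.9 and 0.781 to 2.41. With isoforms subject to nonsense-mediated decay counted as coding, the old minus young difference was 48.4 in place of 70.7 percentage points.

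**Figure D4:**
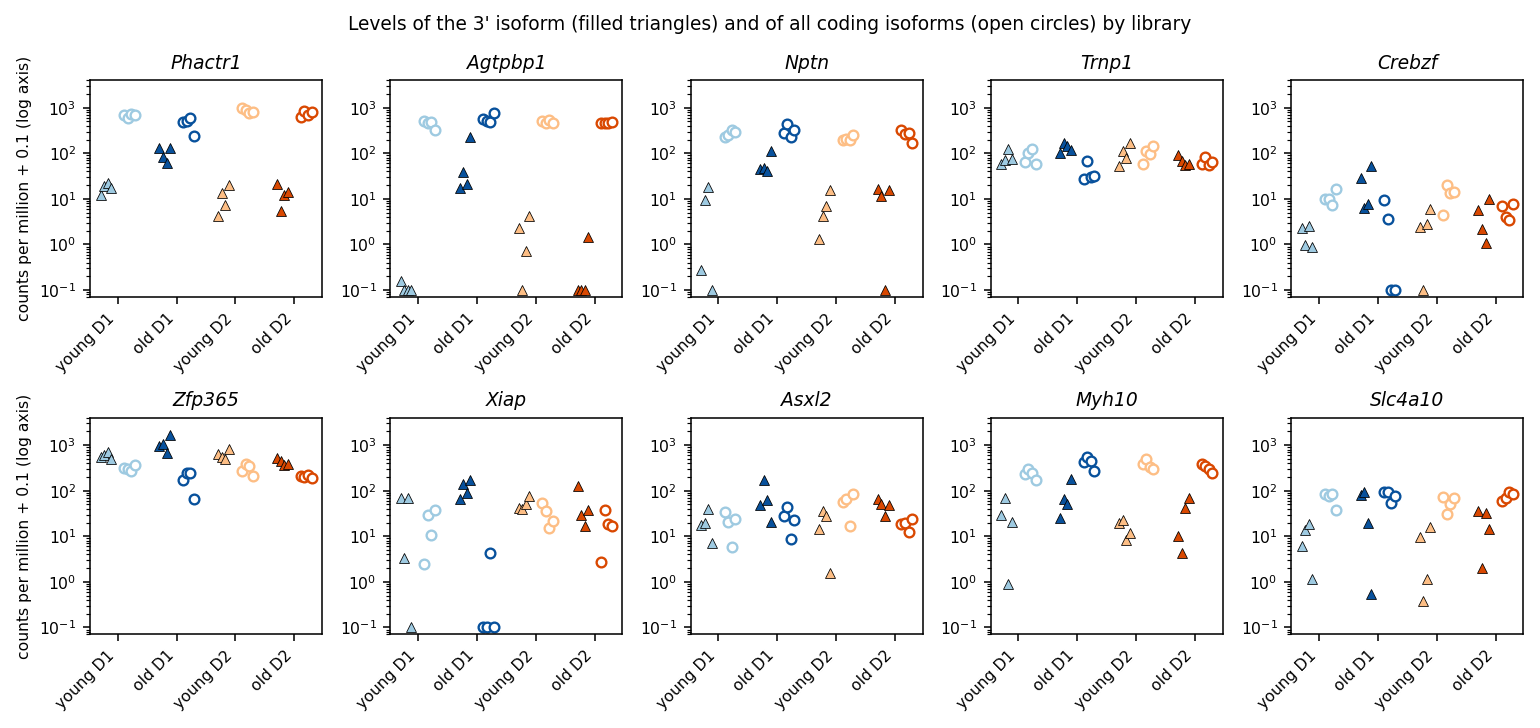
Level of the 3' isoform (filled triangles) and of all coding isoforms together (open circles) in each library, in CPM plus 0.1 on a log axis; values at the bottom are 0. In old D1 the triangles of Phactr1, Agtpbp1, Nptn and Crebzf lie above those of young D1, and the circles of Phactr1 and Zfp365 lie below.

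Zfp365, a zinc finger gene, had the highest 3' isoform level of the 10, and that isoform was the larger part of the mean share in every group. The share was 64.2, 67.2, 72.7 and 57.3% in young D1, 85.1, 81.5, 73.9 and 96.2% in old D1, 70.2, 58.4, 58.4 and 79.4% in young D2 and 72.1, 69.4, 63.2 and 67.0% in old D2. The lowest old D1 library is just above the highest young D1 one and below 1 young D2 library. Coding isoforms were lower in all old D1 libraries (66.0 to 241 CPM) than in young D1 (265 to 365), while the 3' isoform overlapped at 677 to 1653 against 491 to 706.

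Xiap, which codes for an inhibitor of caspases, varied most among young D1 libraries. The share of Xiap-207 was 96.7, 9.74, 86.8 and 0% in young D1, 100, 100, 95.3 and 100% in old D1, 43.3, 52.5, 77.2 and 77.6% in young D2 and 98.0, 44.3, 47.0 and 69.9% in old D2. Coding isoforms had no count in 3 old D1 libraries and 4.29 CPM in the other, against 2.31 to 37.0 in young D1. The isoform's level overlapped, with 64.4 to 170 CPM in old D1 and 0 to 70.8 in young D1.

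Asxl2 codes for a chromatin protein that works with a histone H2A deubiquitinase. Its isoform share was 33.4, 48.1, 87.4 and 23.2% in young D1, 64.5, 79.5, 88.1 and 47.9% in old D1, 19.96, 34.5, 62.8 and 1.69% in young D2 and 78.6, 72.4, 69.2 and 66.4% in old D2. The D1 groups overlap. In D2 all old libraries lie above all young ones, which holds for 1 of the 10 genes and for 1.06% of the 470.

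Myh10 codes for the heavy chain of non-muscle myosin IIB. The share was 11.04, 19.1, 0.319 and 10.5% in young D1, 5.39, 10.8, 10.5 and 40.5% in old D1, 4.83, 4.35, 2.34 and 3.87% in young D2 and 2.51, 1.18, 12.5 and 22.0% in old D2. Apart from replicate 4, old D1 lies within the range of young D1. The mean difference in D1 was 6.55 percentage points, and without old D1 replicate 4 it was -1.34. Coding isoforms of Myh10 stood at 269 to 537 CPM in old D1 and 172 to 296 in young D1.

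Slc4a10 codes for a sodium-dependent bicarbonate transporter of neurons. The share was 6.65, 15.3, 17.8 and 2.72% in young D1, 45.9, 50.2, 26.9 and 0.579% in old D1, 11.5, 0.923, 2.04 and 18.1% in young D2 and 37.4, 2.69, 25.9 and 14.6% in old D2. Old D1 holds both the highest and the lowest value of all 16 libraries. The low library is replicate 4, which is the highest of old D1 in Phactr1, Agtpbp1, Nptn, Zfp365 and Myh10.

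Gene totals in TPM, a unit that divides by isoform length, moved more than counts did. Phactr1-216 had an effective length of 116 to 126 bases in old D1, so that its counts weigh heavily: it took 79.4 to 92.0% of the gene's TPM there and 44.5 to 55.2% in young D1. Phactr1 went from 578 ± 117 TPM in young D1 to 1885 ± 584 in old D1 (SD, n = 4), a ratio of 3.26, while its counts went from 698 ± 48.4 to 578 ± 113 CPM, a ratio of 0.828. Agtpbp1 had a ratio of 5.73 in TPM (262 ± 73.7 to 1500 ± 1475) and of 1.54 in CPM. Old D1 replicate 4 weighs on both, and without it the ratios were 2.93 in TPM and 1.27 in CPM. In D1 the TPM ratio was above the CPM ratio in 9 of 10 genes, all but Asxl2, with medians of 2.33 and 1.63; over 13275 genes it was above in 78.4%, with medians of 1.06 and 0.983.

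Whether the 3' isoforms also changed with age in D2 neurons was tested with edgeR's quasi-likelihood test of the ratio of 3' to coding counts, and no member passed it. Phactr1 had a log2 change of 0.52 (SE 0.995, adjusted p = 0.962), with higher mean share in old D2 at 1.83% ± 1.10 against 1.32% ± 0.842 (SD, n = 4). Trnp1 had 0.11 (SE 0.86), Nptn 0.32 (SE 2.55) and Crebzf 1.89 (SE 2.71), each with an adjusted p = 0.962. Agtpbp1 had -5.94 (SE 2.89, adjusted p = 0.873), a fitted value that depends on the prior count because 3 of 4 old D2 libraries were at 0. In this test 0 of 30 genes (0%) were called, with 1 at an unadjusted p under 0.05. The standard errors are large, so that sizable changes in either direction lie within their range. They rest on 1 estimate of the spread over all 4 groups, with old D1 among them. In Trnp1 the share itself was 49.4% ± 3.48 in young D2 and 51.3% ± 6.88 in old D2 (SD, n = 4). In D2, D1 neuron markers summed to 411 to 656 TPM in old and 133 to 154 in young libraries, and astrocyte markers to 23.1 to 31.7 and 0.190 to 3.93; their part in the D2 values was not tested.

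By the 50% rule, Asxl2 had the largest D2 increase of the 10 (log2 3.10, SE 1.59, unadjusted p = 0.0693, adjusted p = 1), with a share of 71.7% ± 5.23 in old and 29.7% ± 25.8 in young D2 (SD, n = 4). Slc4a10 had 1.96 (SE 1.85), Myh10 0.62 (SE 1.40), Xiap 0.36 (SE 2.81) and Zfp365 0.05 (SE 0.70), each with an adjusted p = 1. Of all 470 genes 0 (0%) were called, with 16 at an unadjusted p under 0.05. At 50%, Agtpbp1 had -5.67 (unadjusted p = 0.0497, adjusted p = 1). The 10 genes had a median of 0.44 with 9 positive, and the 470 a median of -0.20 with 44.7% positive.

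**Figure D5:**
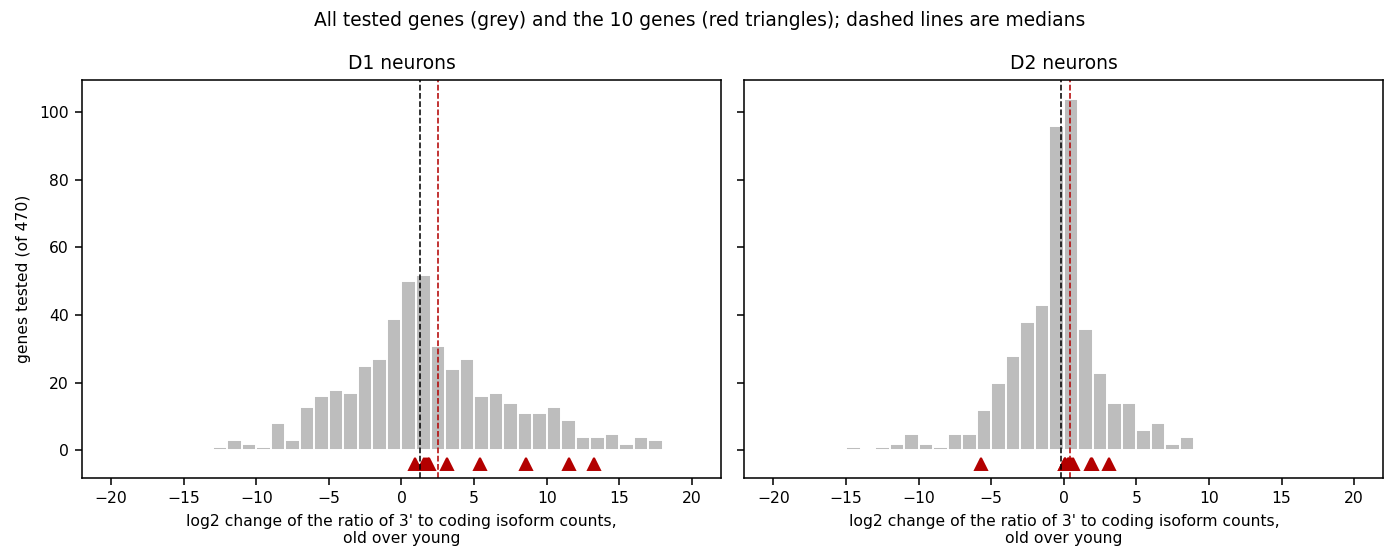
Fitted log2 change with age of the ratio of 3' to coding isoform counts (x axis) for 470 tested genes (grey bars, number of genes) and the 10 genes (red triangles) in D1 (left) and D2 (right); dashed lines are the medians. The D1 medians are 2.49 and 1.25, where the choice of the 10 genes fixes their side, and the D2 medians 0.44 and -0.20.

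Levels in D2 did not pass either. The 3' isoforms of Phactr1 (log2 0.24, SE 0.50), Nptn (0.66, SE 1.44), Crebzf (0.80, SE 1.21), Trnp1 (-0.57, SE 0.33) and Agtpbp1 (-2.35, SE 1.64) each had an adjusted p = 1, and 0 of 31 such isoforms (0%) were called, with 3 at an unadjusted p under 0.05. By the 50% rule, that of Zfp365 had log2 -0.52 (edgeR, SE 0.23, unadjusted p = 0.0385, adjusted p = 0.931). Slc4a10 had 1.675 (SE 1.251), Asxl2 1.30 (SE 0.74), Myh10 1.03 (SE 0.93) and Xiap 0.047 (SE 1.105). Of 498 such isoforms at 50%, 0 (0%) were called, with 42 at an unadjusted p under 0.05. Coding isoforms had a lower mean CPM in old D2 in 8 of the 10 genes. The share of all tested genes with a lower mean was not computed, so nothing is read from this count. No coding class of the 10 was among the 0.0437% of all class levels called by edgeR. That of Asxl2 had log2 -1.58 (SE 0.60, unadjusted p = 0.0162, adjusted p = 0.834). As whole genes, Zfp365 went from 920 ± 84.8 to 635 ± 70.8 CPM (SD, n = 4; log2 -0.54, SE 0.17, unadjusted p = 0.00489, adjusted p = 0.528), and none of the 10 was among the 0.0790% of genes called in D2.

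Machinery that makes 3' ends was looked at as a list of 24 factors, all tested at the gene level. The log2 changes and tests are from gene counts. TPM means beside them are another unit, whose old to young D1 ratio was above that of CPM in 78.4% of genes. In D1, 4 rose with age and 1 fell (edgeR), against 10.6% of all 13926 genes called; their median log2 change was -0.07 and that of all genes -0.08. Rbbp6, a subunit of the cleavage and polyadenylation machinery, rose from 185 ± 67.1 to 611 ± 382 TPM (SD, n = 4; log2 1.38, SE 0.27, adjusted p = 0.00338). Cpsf2, a subunit of the cleavage factor CPSF, rose from 25.9 ± 6.82 to 54.1 ± 14.4 TPM (log2 0.97, SE 0.25, adjusted p = 0.0175). Leaving out replicate 2 or 4 of young D1 put Cpsf2 at an adjusted p = 0.0606 and 0.0589, which misses the threshold. Fip1l1 (log2 0.84, adjusted p = 0.0447) and Wdr33 (log2 2.15, adjusted p = 0.0418) are also of CPSF. Without old D1 replicate 2 they stood at 0.54 (adjusted p = 0.169) and 0.80 (adjusted p = 0.376), and both also lose their call when replicate 1, 2 or 4 of young D1 is left out, or, for Wdr33, replicate 3. Ppp1ca, a phosphatase subunit found in the complex and in many others, fell from 919 ± 190 to 261 ± 80.9 TPM (log2 -1.93, SE 0.23, adjusted p = 9.58e-05). With the compared groups alone in the fit, 1 of the 24, Ppp1ca, was called, and Rbbp6 had an adjusted p = 0.0563. In D2, 0 of 24 were called, with 1 at an unadjusted p under 0.05 and 0 by DESeq2.

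Of 9 factors of ribosome recycling and rescue, 1 was called in D1, a share close to the 10.6% of all genes called. Gspt1, a release factor, rose from 38.1 ± 13.1 to 111 ± 35.97 TPM (SD, n = 4). On gene counts Gspt1 had an edgeR log2 change of 1.24 (SE 0.33, adjusted p = 0.021). It loses that call without young D1 replicate 4 (1.01, adjusted p = 0.0679), without old D1 replicate 4 (0.99, adjusted p = 0.0567) and when the fit holds the D1 libraries alone (adjusted p = 0.121). Abce1 had a log2 change of 0.23 in D1 (SE 0.32, adjusted p = 0.718). In D2 0 of the 9 were called.

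The genes whose ratio ran most like the mean log2 ratio of Phactr1, Agtpbp1, Nptn, Trnp1 and Crebzf over the 16 libraries were, among 25 others, Txn2 (Pearson r 0.855), Icmt (0.681), Rpl9 (0.565), Cacfd1 (0.542) and Pou6f1 (0.535). Old D1 libraries also stand apart in fragment length, and the correlations are given as a description. For Txn2, a mitochondrial thioredoxin, the 3' isoform share was 3.99, 24.9, 11.1 and 3.26% in old D1 and 0 in all other libraries but 1, at 0.0710%. Icmt, a methyltransferase for prenylated proteins, had 19.8, 20.2, 1.93 and 58.3% in old D1 and 8.22% or less elsewhere. In Rpl9, old D1 replicate 4 stood at 23.2% and the other 15 libraries at 1.27 to 5.54%. Rpl9 is a ribosomal protein gene with near-identical copies, and their part in its counts was not tested. The place of Cacfd1 and Pou6f1 rests on few counts: Cacfd1 had no count of either class in 2 old D1 libraries and a share of 0 in the other 2, and Pou6f1 had shares of 100, 0 and 100% in 3 old D1 libraries and no count in 1.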

How the data were processed

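TRAP libraries of 16 samples were analysed, and 3 ribosome profiling samples of NIH-3T3 cells were not analysed here. Per the labels' protocols, cDNA was amplified with NuGEN Ovation V2. The submitters' processing notes name STAR 2.5.1b, RSEM 1.2.20 and mm10. Read length, annotation release and use of strand were not given in the sources used here. The deposited expected counts (estimated counts, 74.2% of nonzero isoform values not whole) were rounded for tests. TPM and the effective lengths (a signal-like value in bases) are as deposited, per the file headers, and deposited FPKM and percent of isoform values were not used for any result. The effective length shows how RSEM scales TPM, per the file headers.

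The genes and lists were chosen with earlier results of these data known. Isoforms were matched by ID to GENCODE M21 (91320 of 94647 matched, 86.6% of these with the same length). A 3' isoform is neither protein-coding nor subject to decay by its type and has at least 90% (or, for 5 of the genes, 50%) of its exonic bases in the 3' UTR of coding isoforms. Counts of each class were summed per gene and kept where edgeR's filterByExpr kept both classes (30 genes at 90%, 470 at 50%, all members included). The ratio test (edgeR 4.0.16, R 4.3.3, quasi-likelihood, all 16 libraries, TMM) had a term per library and a class effect per group; levels had a mean per group. Adjusted p-values are Benjamini-Hochberg over all features tested, two-sided, with 0.05 as threshold. Named genes are the 10, the 5 others most correlated with their mean log2 ratio (pseudocount 0.5 counts), and up to 4 called 3' end factors and 3 recycling factors per direction. Marker lists were D1, D2 and spiny projection neurons, astrocytes, oligodendrocytes, microglia, endothelial and mural cells, cholinergic, GABAergic and glutamatergic neurons. Some single genes of these lists are also named. Of 120 library pairs 0 were identical. The scripts were tested on simulated data. Alternatives used DESeq2 1.42.0 and limma 3.58.1. The kit amplifies cDNA, and no molecular identifiers are named in the sources used here.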

Additional observations from a re-analysis of the deposited data

Results flagged for a closer look

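Among 120 groups of 4 values (share, 3' isoform CPM and coding CPM of each gene), 11 held a library whose gap to the nearest other exceeded Dixon's limit, 6 of them in old D1. Chance flags about 1 in 20 of independent groups of normally distributed values, which these are not. Where the other 3 libraries tied at 0 or 100%, as for some flags of Agtpbp1 and those of Xiap, any differing value is flagged. Share and CPM of 1 gene are also linked. The number of flags is therefore not read against that rate. Agtpbp1 was flagged most, with a 3' isoform at 0 in 7 of 16 libraries: old D1 replicate 4 had 232.8 CPM of the 3' isoform (the others 16.9 to 38.3), young D1 replicate 1 had 0.0596 CPM (a share of 0.0120%) and old D2 replicate 4 had 1.39 CPM (0.283%), each where the other 3 libraries were at 0. The 3' isoform of Nptn was at 113.5 CPM in old D1 replicate 4, the others at 40.8 to 47.1. Myh10 had a share of 40.5% in the same library, the others 5.39 to 10.8%. In old D1 replicate 3 Xiap had a share of 95.3% and coding isoforms at 4.29 CPM, where the others had 100% and 0. Coding isoforms of Trnp1 were at 69.0 CPM in old D1 replicate 2 (the others 27.1 to 31.1), and those of Phactr1 at 608 CPM in young D1 replicate 2 (the others 700 to 717).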

How the results depend on the processing

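No paired analysis was possible because the replicate numbers follow accession order and the labels pair no libraries. In D2, the ratio of the members, and the 3' isoform level of those that pass the 90% rule, were called in 0 of 224 combinations of member and alternative. The D2 counts of called ratios, called 3' UTR isoform levels and called 3' end factors were 0 under every alternative run. In D1, the ratio was called in 2 of 30 genes at the 90% rule, of which 5 are members, and in 9 of 470 at 50%. The count at 90% became 4 when 100% was asked for, 6 by limma on the log2 ratio and 4 after removing a trend over GC and length. It was 4 with only the compared groups and 2 to 3 with 1 library left out. Of 31 3' UTR isoforms, 5 were called in level in D1, against 7.96% of all 18060 class levels. That count was 27 of 498 at 50%, 3 at 100%, 8 by DESeq2, 3 with only the compared groups and 3 to 6 with 1 library left out. The members, chosen on this contrast, are among the genes tested, so nothing is read from the D1 counts of ratios and 3' UTR isoform levels. The 5 called 3' end factors were 9 by DESeq2, 3 without a count filter, 1 with only the compared groups and 2 to 7 with 1 library left out (2 without young D1 replicate 2 or 4, 3 without young D1 replicate 1). Uncalled D2 ratios changed sign for Nptn by limma (-1.42), with the trend removed (-2.19) and with 1 library left out (-0.55 to 1.34), for Trnp1 with the trend removed (-1.68) and with 1 library left out (-0.085 to 0.218), and with 1 library left out for Zfp365 (-0.14 to 0.35), Xiap (-0.60 to 1.08) and Myh10 (-0.19 to 1.44); the D2 level of the Phactr1 isoform ranged from -0.093 to 0.655. The D1 share difference of Myh10 ranged from -1.34 to 10.4 percentage points and that of Crebzf was 48.4 with decay isoforms as coding. Causes were not tested. A rule asking for no coding base in the 3' isoform, added after seeing the data, gave 2 calls in D1 and 0 in D2. Coding isoforms without a count in some old D1 libraries limit the shares of Crebzf and Xiap.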
